A study of Danio rerio with 52 samples.

Results

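The 8 genes described here were grouped as transcriptional targets and modulators of Notch signalling, and were measured in the skin and lateral line of zebrafish larvae. Listed as targets are her4.1, her6, her9, hey1 and hey2, as feedback inhibitors nrarpa and nrarpb, and as a modulator lfng. Whether Notch controls each of them in these cells was not tested. They were chosen by name, each is listed with 1 probe set, and all 8 are among the 19260 genes tested on 52 gene arrays. RNA came from cells sorted by fluorescence from about 50 larval skins per sample at 4 days after fertilization, and 1 ng was amplified for each array. The untreated populations were GFP+ hair cells (n = 2 arrays), mCherry+/GFP+ mantle cells (n = 4), mCherry+ mantle cells (n = 5) and non-fluorescent cells (n = 6). The mCherry+/GFP+ cells came from alpl:mCherry;ET20 larvae, in which GFP labels most mantle cells. In the other line, alpl:mCherry;pou4f3:GFP, the fluorophores mark mantle cells (mCherry) and hair cells (GFP). Larvae of the copper experiment were exposed to 5 µM CuSO4 for 1 h, which kills hair cells. Their mCherry+ mantle cells were sorted 1, 3, 5 and 11 h later (n = 4 each), and their non-fluorescent cells at the same times (n = 7, 4, 4 and 4). All larvae carried the transgenes of their line and were otherwise unmodified as far as the labels say. Hair cells and mCherry+/GFP+ cells were pooled from several sorts, and the labels do not say whether other replicates came from separate clutches, so that p-values measure the spread between the samples as deposited. In comparisons of mCherry+/GFP+ cells with other sorts, line cannot be told apart from population. Neither can pooling, except against hair cells. Pooling likewise cannot be told apart from population where hair cells are compared with mCherry+ or non-fluorescent cells.

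Notch receptors are cleaved when a Delta or Jagged ligand on a neighbouring cell binds them, and the freed intracellular domain joins the DNA-binding protein Rbpj to switch on target genes. Classical targets encode repressors of the Hes/Her and Hey families, which hold back differentiation, while Nrarp proteins bind the active complex and dampen it, and Fringe enzymes add sugars to the receptor that change which ligand it answers. In the neuromast, the sense organ of the lateral line, Notch signalling is known to keep support cells from becoming hair cells, both in development and after hair cells are lost.

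Values are on the log2 scale throughout, as deposited, and differences between groups are given as log2 difference ± SE from limma, called at an adjusted p below 0.05. The labels were checked against markers. A list of 9 measured hair cell genes averaged 9.37 in hair cells, against 4.15 in mCherry+/GFP+ cells, 4.24 in mCherry+ cells and 4.25 in non-fluorescent cells. The 8 pigment cell genes were also high in hair cells. They averaged 6.21 there, against 3.6 in mCherry+/GFP+ cells, 3.66 in mCherry+ cells and 4.02 in non-fluorescent cells. Of these, 5 were called higher and 2 lower in hair cells than in non-fluorescent cells. Their part in the hair cell values was not tested. The 10 measured neuromast support and mantle genes averaged 8.53 in mCherry+/GFP+ cells, 6.6 in mCherry+ cells and 6.44 in hair cells, against 5.49 in non-fluorescent cells. Of the 10, 7 were called higher and 2 lower in mCherry+/GFP+ cells than in non-fluorescent cells. In mCherry+ cells 6 were higher and 4 lower, and in hair cells 5 were higher and 3 lower. Connective tissue genes averaged 7.43 in mCherry+/GFP+ cells and 9.54 in mCherry+ cells, against 8.97 in non-fluorescent cells, so their mean was higher in the mCherry+ sort than in the non-fluorescent one. Mean values of the arrays ran from 4.45 to 4.48 in the 19 treated non-fluorescent arrays and from 4.29 to 4.37 in the 16 treated mCherry+ arrays, against 4.27 to 4.3 in the 17 untreated arrays, so that treatment and array set cannot be told apart. Setting the array medians equal moved the median difference of all genes by 0.11 for mCherry+/GFP+ over non-fluorescent cells and by 0.15 for mCherry+ over non-fluorescent cells. It moved the copper responses of non-fluorescent cells by -0.20, -0.10, -0.11 and -0.14 at 1, 3, 5 and 11 h, and the comparison of mCherry+ with non-fluorescent cells by 0.24 to 0.32 at those times. The directions over all genes moved too. In untreated mCherry+/GFP+ over non-fluorescent cells, 2697 genes called higher and 3347 lower became 3422 and 2610. For untreated mCherry+ cells, 2912 and 3304 became 4666 and 2452. For non-fluorescent cells 1 h after copper, 2021 and 181 became 463 and 496. Shares of all genes are given as deposited. For the 8 genes in these comparisons a second value, relative to the array medians, is given beside each called difference. Values and counts of the other Notch pathway genes and of the marker lists are as deposited only.

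Across the 12 groups, hey1 had the widest range of group means, 3.45, and nrarpb the narrowest, 0.59. The ranges of her6 (2.91), her4.1 (2.83), hey2 (2.55), nrarpa (2.52), lfng (1.95) and her9 (1.89) lay between. Dimness limits some of the genes, since nrarpb was below the array median in 52 of 52 arrays, her4.1 in 50 and hey2 in 43. In untreated mCherry+/GFP+ mantle cells 4 genes had their highest group mean: her4.1, her6, hey1 and nrarpa. For hey1 all 4 of these arrays lay above all arrays of every other group, while for her4.1 and her6 they overlapped the next group. For nrarpa they lay above the next group, non-fluorescent cells at 5 h, but overlapped untreated non-fluorescent cells and those at 3 h. Non-fluorescent cells at 1 h after copper had the highest means of hey2 and lfng, those at 11 h the highest mean of her9, and those at 3 h the highest mean of nrarpb.

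In untreated larvae, her4.1, her6 and hey1 were higher in both mantle populations than in non-fluorescent cells, and none of the 3 was higher in hair cells. The mCherry+/GFP+ cells differed from non-fluorescent cells in 4 of the 8 genes, all higher. Over all genes 31.4% were called in this comparison, 14% higher and 17.4% lower. In mCherry+ cells 7 genes differed from non-fluorescent cells, 4 higher and 3 lower, against 32.3% of all genes (2912 genes higher and 3304 lower). Hair cells differed from non-fluorescent cells in 4 genes, 1 higher and 3 lower, against 36.3% of all genes (15.5% higher, 20.8% lower). The median difference of the 8 genes was 0.56 in mCherry+/GFP+ cells, 0.50 in mCherry+ cells and -0.52 in hair cells, beside medians of -0.06, 0.01 and -0.06 over all genes. The arrays of a population did not overlap those of non-fluorescent cells in 3, 2 and 4 of the 8 genes, against 18.8%, 22.1% and 47.1% of all genes, the last with only 2 hair cell arrays. Fewer expressing cells in a sort and less RNA per cell cannot be told apart in these bulk samples.

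**Figure D1:**
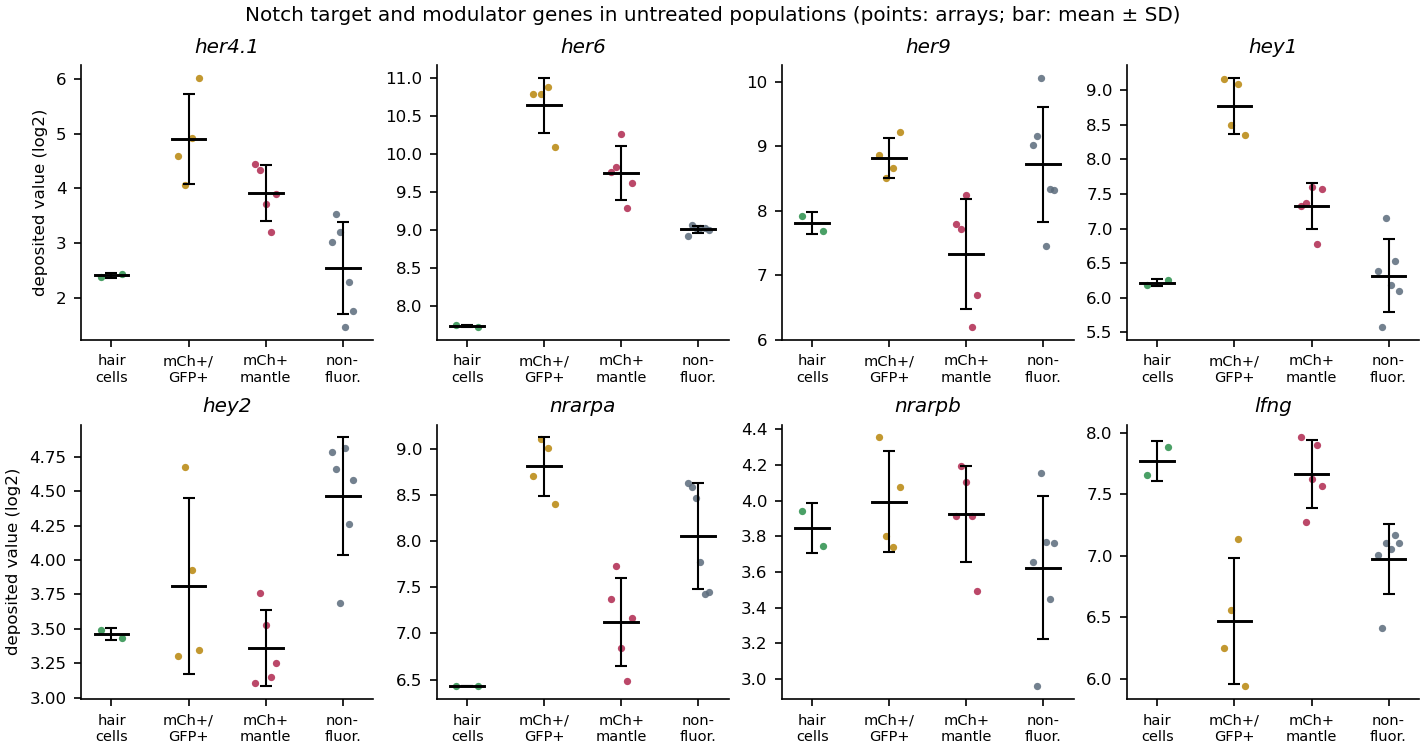
Deposited log2 values of the 8 genes in untreated hair cells, mCherry+/GFP+ mantle cells, mCherry+ mantle cells and non-fluorescent cells, with 1 point per array and the mean ± SD. The 4 mCherry+/GFP+ arrays of hey1 lie between 8.35 and 9.16, above all other arrays, and the 2 hair cell arrays of her6, at 7.72 and 7.74, lie below all others.

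The Her genes encode repressors of the Hairy and Enhancer of split family, and her4.1 is a relative of mammalian Hes5 and a classical Notch target. Its values were 4.60, 4.07, 4.92 and 6.03 in mCherry+/GFP+ cells, and 4.45, 4.33, 3.72, 3.20 and 3.90 in mCherry+ cells. Hair cells had 2.38 and 2.44. In order of replicate number the 6 non-fluorescent arrays had 3.02, 3.52, 3.21, 1.46, 2.29 and 1.76, with a median of 2.66. Replicates 1, 2 and 3 thus lay above replicates 4, 5 and 6. The same split was seen in her9 and nrarpa. Its part in the differences from untreated non-fluorescent cells was not tested. All mCherry+/GFP+ arrays were above all non-fluorescent arrays, while the mCherry+ arrays overlapped them. The gene was 2.36 ± 0.40 higher in mCherry+/GFP+ cells than in non-fluorescent cells (limma adjusted p = 0.00021, 2.47 relative to the array medians) and 1.37 ± 0.38 higher in mCherry+ cells (adjusted p = 0.00941, 1.53 relative to the array medians). The mCherry+ call was lost when the closest pairs of arrays were averaged (adjusted p = 0.0755), an alternative added after the data were seen. These pairs were non-fluorescent replicates 5 and 6, mCherry+ replicates 1 and 2 and both hair cell arrays. The smallest SD of the difference between 2 arrays over all genes was 0.245, 0.307 and 0.308 in these groups, in that order. In the other groups it lay between 0.443 and 0.680. Whether the arrays of a pair are separate samples was not tested. In hair cells the her4.1 difference from non-fluorescent cells was -0.13 ± 0.51, with a 95% interval of -1.21 to 0.95. The probe set may also catch RNA of near-identical neighbouring copies of this gene, since how the probes treat them is not given in the sources used here. Of those copies, her4.4 was not called in any of the 3 comparisons. The copy her4.5, named after its values were seen, was higher in hair cells than in non-fluorescent cells (1.56 ± 0.55, adjusted p = 0.0346) and was not called in either mantle population.

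A relative of mammalian Hes1, her6 is expressed in progenitor cells of several tissues. Its values were 10.78, 10.79, 10.88 and 10.09 in mCherry+/GFP+ cells, 9.76, 9.82, 10.26, 9.29 and 9.62 in mCherry+ cells and 7.74 and 7.72 in hair cells. The non-fluorescent arrays lay close together, with a lowest, median and highest value of 8.92, 9.02 and 9.06. Neither mantle population overlapped the non-fluorescent cells, and both hair cell arrays were below every other array. The gene was 1.63 ± 0.17 higher in mCherry+/GFP+ cells (adjusted p = 1.15e-06, 1.74 relative to the array medians) and 0.74 ± 0.16 higher in mCherry+ cells (adjusted p = 0.00178, 0.89 relative to the array medians) than in non-fluorescent cells. In hair cells it fell by 1.28 ± 0.22 on the log2 scale relative to non-fluorescent cells (adjusted p = 0.000157), a 2.42-fold lower value.

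The third Her gene, her9, was low in mCherry+ cells and not in mCherry+/GFP+ cells. This relative of her6 encodes a repressor that in zebrafish is known to answer to BMP signalling. It had 8.86, 8.50, 8.67 and 9.22 in mCherry+/GFP+ cells, 7.79, 7.71, 8.24, 6.19 and 6.70 in mCherry+ cells and 7.92 and 7.68 in hair cells. The non-fluorescent arrays had 9.01, 9.15, 10.06, 7.45, 8.33 and 8.32 in order of replicate number, with a median of 8.67. Replicates 1, 2 and 3 again lay above replicates 4, 5 and 6. The mCherry+ arrays were low and spread over more than a log2 unit, and they overlapped the non-fluorescent arrays. In mCherry+ cells it was lower than in non-fluorescent cells, with a difference of -1.39 ± 0.40 (adjusted p = 0.0114, -1.24 relative to the array medians), while the difference in mCherry+/GFP+ cells was 0.09 ± 0.42, with an interval of -0.80 to 0.98. Hair cells differed by -0.92 ± 0.54 and did not pass the test.

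The Hey genes encode a second group of repressors. Among them hey1 had 9.16, 8.49, 9.08 and 8.35 in mCherry+/GFP+ cells, 7.32, 7.37, 7.60, 6.77 and 7.57 in mCherry+ cells and 6.19 and 6.25 in hair cells. The non-fluorescent arrays had a lowest, median and highest value of 5.57, 6.29 and 7.15. The mCherry+/GFP+ arrays lay above all others, and 1 mCherry+ array, replicate 4, lay within the non-fluorescent range. The gene was 2.45 ± 0.25 higher in mCherry+/GFP+ cells (adjusted p = 7e-07, 2.56 relative to the array medians) and 1.00 ± 0.24 higher in mCherry+ cells (adjusted p = 0.00292, 1.16 relative to the array medians) than in non-fluorescent cells. The difference between hair cells and non-fluorescent cells was -0.10 ± 0.32, with an interval of -0.77 to 0.57.

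For hey2, which is known for its part in specifying arteries in zebrafish, the order was the other way. It had 3.30, 4.68, 3.93 and 3.34 in mCherry+/GFP+ cells, 3.11, 3.76, 3.53, 3.15 and 3.25 in mCherry+ cells and 3.49 and 3.43 in hair cells, against a lowest, median and highest of 3.69, 4.62 and 4.82 in non-fluorescent cells. Hair cells and all but 1 mCherry+ array, replicate 2, lay below every non-fluorescent array. It was lower in mCherry+ cells, with a difference of -1.11 ± 0.24 (adjusted p = 0.00167, -0.96 relative to the array medians). Hair cells differed by -1.01 ± 0.33 (adjusted p = 0.0223), a call that was lost without either hair cell array (differences of -1.04 and -0.98, adjusted p = 0.111 and 0.134), with a block term for sets of untreated mCherry+ and non-fluorescent arrays (adjusted p = 0.073) or with the closest pairs averaged (adjusted p = 0.156). In mCherry+/GFP+ cells the difference was -0.65 ± 0.26 (adjusted p = 0.0638). It passed without mCherry+/GFP+ replicate 2 (-0.94, adjusted p = 0.00582) or without non-fluorescent replicate 3 (-0.81, adjusted p = 0.0154). Endothelial markers also differed between these sorts. The 8 measured endothelial genes averaged 3.71 in hair cells, 4.00 in mCherry+/GFP+ cells and 4.14 in mCherry+ cells, against 4.90 in non-fluorescent cells, and 5, 4 and 5 of the 8 were called lower in these populations. The shift was not particular to endothelial genes. In mCherry+ cells 10 of 10 muscle, 7 of 10 keratinocyte, 6 of 8 Schwann cell and glia and 5 of 8 leukocyte genes were also called lower. So were 4 of 5 erythroid and 4 of 5 ionocyte genes, while of 10 connective tissue genes 2 were lower and 5 higher. The part of these lists in the hey2 difference was not tested.

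Of the 2 Nrarp genes, whose products dampen the active Notch complex, nrarpa was called and nrarpb was not. Values of nrarpa were 8.71, 9.11, 9.01 and 8.40 in mCherry+/GFP+ cells, 7.38, 7.73, 6.84, 6.49 and 7.17 in mCherry+ cells and 6.43 and 6.43 in hair cells. The non-fluorescent arrays had 8.63, 8.59, 8.47, 7.78, 7.42 and 7.45 in order of replicate number, with a median of 8.12. Replicates 1, 2 and 3 lay above replicates 4, 5 and 6 here too. The mCherry+ arrays and the mCherry+/GFP+ arrays did not overlap each other, but each overlapped the non-fluorescent range. Compared with non-fluorescent cells, nrarpa was lower in mCherry+ cells (-0.93 ± 0.26, adjusted p = 0.00964, -0.78 relative to the array medians) and in hair cells (-1.63 ± 0.35, adjusted p = 0.00119). Its difference of 0.75 ± 0.28 in mCherry+/GFP+ cells (adjusted p = 0.0463, 0.86 relative to the array medians) was close to the threshold. That call was lost without any 1 of 6 arrays, which were non-fluorescent replicates 4, 5 and 6 and mCherry+/GFP+ replicates 1, 2 and 3 (differences of 0.62 to 0.78, adjusted p = 0.0696 to 0.122). It was also lost under 6 alternatives with every array kept, the replicate block aside (adjusted p = 0.0562 to 0.208). The nrarpa call in mCherry+ cells was lost with array weights (adjusted p = 0.0922) and with the block for sets of untreated arrays and equal array medians together (adjusted p = 0.0955). For nrarpb no untreated comparison passed the test, with differences of 0.37 ± 0.20, 0.30 ± 0.19 and 0.22 ± 0.26 in mCherry+/GFP+, mCherry+ and hair cells against non-fluorescent cells.

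The Fringe glycosyltransferase lfng was the one gene that separated the 2 mantle populations in the opposite direction. It had 6.25, 6.56, 7.14 and 5.94 in mCherry+/GFP+ cells, 7.96, 7.28, 7.62, 7.90 and 7.56 in mCherry+ cells and 7.66 and 7.88 in hair cells, against a lowest, median and highest of 6.41, 7.08 and 7.17 in non-fluorescent cells. All mCherry+ and hair cell arrays were above all non-fluorescent arrays, and the mCherry+/GFP+ arrays overlapped them. It was higher than in non-fluorescent cells by 0.69 ± 0.20 in mCherry+ cells (adjusted p = 0.0125, 0.84 relative to the array medians) and by 0.79 ± 0.27 in hair cells (adjusted p = 0.027). The hair cell call was lost without either hair cell array (0.91 and 0.68, adjusted p = 0.0844 and 0.205), with all arrays in 1 fit (adjusted p = 0.0682) or with the closest pairs averaged (adjusted p = 0.141). In mCherry+/GFP+ cells the difference was -0.51 ± 0.21 (adjusted p = 0.0797), and it passed without mCherry+/GFP+ replicate 3 (-0.73, adjusted p = 0.01) or non-fluorescent replicate 2 (-0.62, adjusted p = 0.0267).

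Set against each other, the mCherry+/GFP+ mantle cells were higher than the mCherry+ mantle cells in 4 genes and lower in 1, against 25.3% of all genes called (12.6% higher, 12.8% lower). The increases were 1.69 ± 0.29 in nrarpa (adjusted p = 0.000274), 1.49 ± 0.44 in her9 (adjusted p = 0.0183), 1.45 ± 0.26 in hey1 (adjusted p = 0.000481) and 0.89 ± 0.18 in her6 (adjusted p = 0.00136). The decrease was in lfng, -1.20 ± 0.22 (adjusted p = 0.000571). The groups did not overlap in 4 of the 8 genes (nrarpa, her9, hey1 and lfng), against 21.5% of all genes. The her9 call was lost without mCherry+/GFP+ replicate 4 (1.35, adjusted p = 0.052) or mCherry+ replicate 4 (1.20, adjusted p = 0.0515), and with the block for sets of untreated arrays (adjusted p = 0.109). The difference of her4.1, 0.99 ± 0.42, did not pass (adjusted p = 0.0964) but did without mCherry+/GFP+ replicate 2 (1.26, adjusted p = 0.043). Of the marker lists, 9 of 10 neuromast genes were higher and 8 of 10 connective tissue genes lower in the same comparison, and their part in these differences was not tested. Line and pooling cannot be told apart from population here.

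Hair cells were lower than mCherry+/GFP+ mantle cells in 4 genes and higher in 1, against 35.4% of all genes (18.2% lower, 17.2% higher). The decreases were -2.91 ± 0.23 in her6 (adjusted p = 1.26e-08), -2.55 ± 0.34 in hey1 (adjusted p = 8.17e-06), -2.49 ± 0.54 in her4.1 (adjusted p = 0.00139) and -2.38 ± 0.37 in nrarpa (adjusted p = 5.27e-05), and lfng was 1.30 ± 0.29 higher (adjusted p = 0.00145). All 5 calls held under every alternative run and without each array. The groups did not overlap in 6 of the 8 genes, against 50.1% of all genes. Against mCherry+ mantle cells, hair cells were lower in 3 genes and higher in none, against 35.6% of all genes (18% lower), and 4 of the 8 genes did not overlap, against 52.9% of all genes. Here her6 differed by -2.02 ± 0.23 (adjusted p = 8.34e-07), hey1 by -1.11 ± 0.33 (adjusted p = 0.0122) and her4.1 by -1.50 ± 0.52 (adjusted p = 0.0318). The hey1 call was lost without either hair cell array (adjusted p = 0.09 and 0.072), and the her4.1 call without hair cell replicates 1 or 2 or mCherry+ replicates 1 or 2 (differences of -1.54 to -1.37, adjusted p = 0.061 to 0.155). With the closest pairs averaged both were lost (adjusted p = 0.126 for hey1 and 0.228 for her4.1), and her4.1 also with the block for sets of untreated arrays (adjusted p = 0.065).

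**Figure D2:**
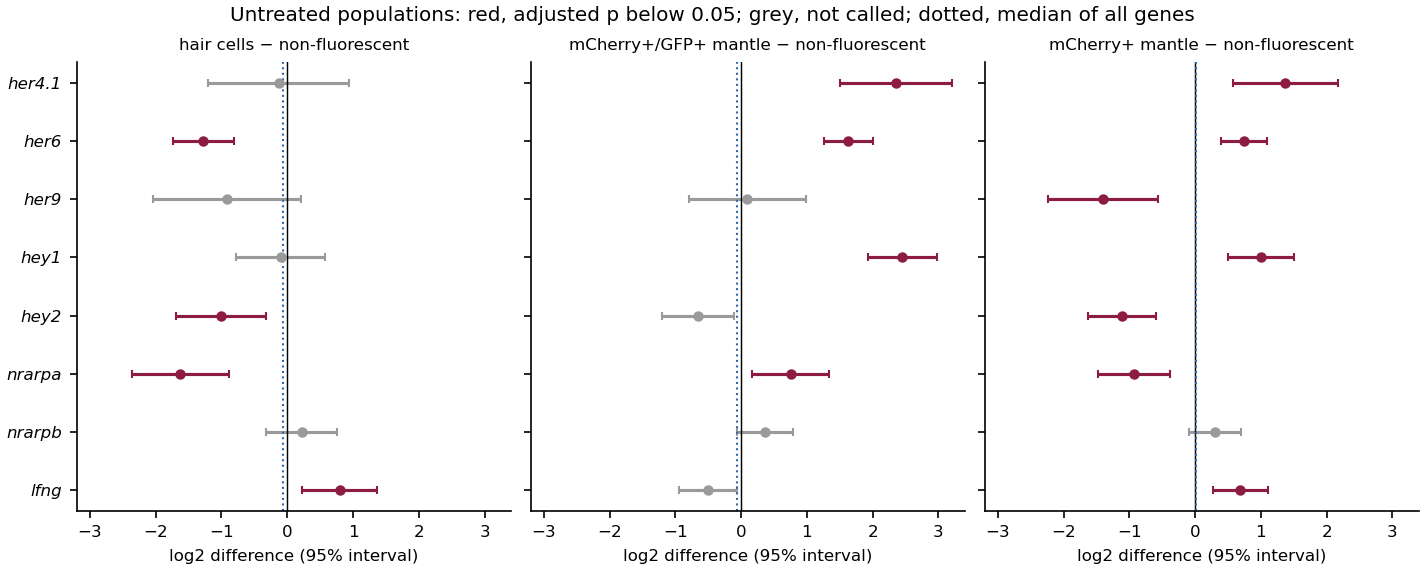
Log2 differences of the 8 genes in hair cells, mCherry+/GFP+ mantle cells and mCherry+ mantle cells, each minus non-fluorescent cells, with 95% intervals from limma. Red points passed the adjusted threshold and the dotted line is the median of all genes. Differences of her4.1, her6 and hey1 lie right of 0 in both mantle panels, and no interval of these 3 lies right of 0 in the hair cell panel.

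Other Notch pathway genes were followed through a list of 63 genes, 52 of them measured. In mCherry+/GFP+ cells 13 were higher and 4 lower than in non-fluorescent cells (14% higher and 17.4% lower over all genes). Their median difference was 0.27 beside -0.06 over all genes. The increases were largest in the target her15.2 (3.71 ± 0.27), the receptor notch3 (2.47 ± 0.22), the target her12 (2.31 ± 0.33) and rbpjb, which encodes the DNA-binding partner of the receptor (1.71 ± 0.25), and 3 of 4 receptors were higher. In mCherry+ cells 8 were higher and 5 lower than in non-fluorescent cells, led by her15.2 (2.80 ± 0.25), dlc (-1.53 ± 0.15), the protease gene adam10b (1.36 ± 0.24) and the ubiquitin ligase gene itcha (1.24 ± 0.14). The annotation lists her15.2 for a second probe set as well, with means of 6.78 in mCherry+/GFP+ cells and 5.71 in mCherry+ cells, against 4.60 in non-fluorescent cells.

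Hair cells had ligand genes among their increases. Of 9 measured ligands 4 were higher and 1 lower than in non-fluorescent cells. Over the whole list 8 of 52 were higher and 7 lower (15.5% higher and 20.8% lower over all genes). The list had a median difference of 0.12 beside -0.06 over all genes. The Jagged genes jag2b (3.19 ± 0.42) and jag2a (2.73 ± 0.30) and the Delta gene dlb (2.43 ± 0.38) were higher, and the segmentation gene her2 was lower (-2.32 ± 0.29). Against mCherry+/GFP+ cells, hair cells were higher in 5 of 9 ligands and lower in 3 of 4 receptors. Of the 52 genes 8 were higher and 12 lower (17.2% higher and 18.2% lower over all genes). Here her12 (-3.99 ± 0.44), her15.2 (-3.28 ± 0.36), notch2 (-2.96 ± 0.20) and the ligand gene dll4 (2.86 ± 0.24) differed most. Against mCherry+ cells 13 of the 52 genes were higher and 9 lower in hair cells (17.6% higher and 18% lower over all genes), with 6 of 9 ligands higher. Between the mantle populations, mCherry+/GFP+ cells were higher in 13 genes and lower in 2 (12.6% higher and 12.8% lower over all genes). The largest of these differences were in notch3 (2.02 ± 0.23), her12 (1.62 ± 0.34), rbpjb (1.61 ± 0.26) and the gamma-secretase gene aph1b (1.52 ± 0.27).

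After copper, the mCherry+ mantle cells were set against untreated mCherry+ cells, and all 4 times share the 5 untreated arrays. In both populations the arrays at 3 and 5 h are linked to each other, as described below, so that p-values at these times may be too small. At 1 h hey1 was lower and no other gene was called, against 1.5% of all genes (0.353% lower). At 3 h 1 gene was higher (hey2) and 2 were lower (hey1 and lfng), against 14.9% of all genes (7.99% higher, 6.95% lower). At 5 h her9 and hey2 were higher and lfng was lower, against 12.4% of all genes (5.85% higher, 6.55% lower). At 11 h limma called none of the 8 genes, against 4% of all genes. Without adjustment 3 of the 8 (her4.1, her9 and lfng) had a p below 0.05, as did 3370 of all 19260 genes. The treated and untreated arrays did not overlap in 1, 1, 3 and 1 of the 8 genes at 1, 3, 5 and 11 h, against 8.99%, 20.5%, 17.3% and 9.25% of all genes. Non-fluorescent cells were likewise set against their 6 untreated arrays. At 1 h hey2 and lfng were higher, against 11.4% of all genes (10.5% higher). At 3 h nrarpb was higher, against 23.9% of all genes (17.3% higher), at 5 h hey1 was lower, against 16.4% (3.47% lower), and at 11 h nrarpb was higher, against 8.69% (7.89% higher). Here 1, 0, 1 and 0 of the 8 genes did not overlap, against 3.58%, 18.4%, 16.2% and 7.47% of all genes.

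**Figure D3:**
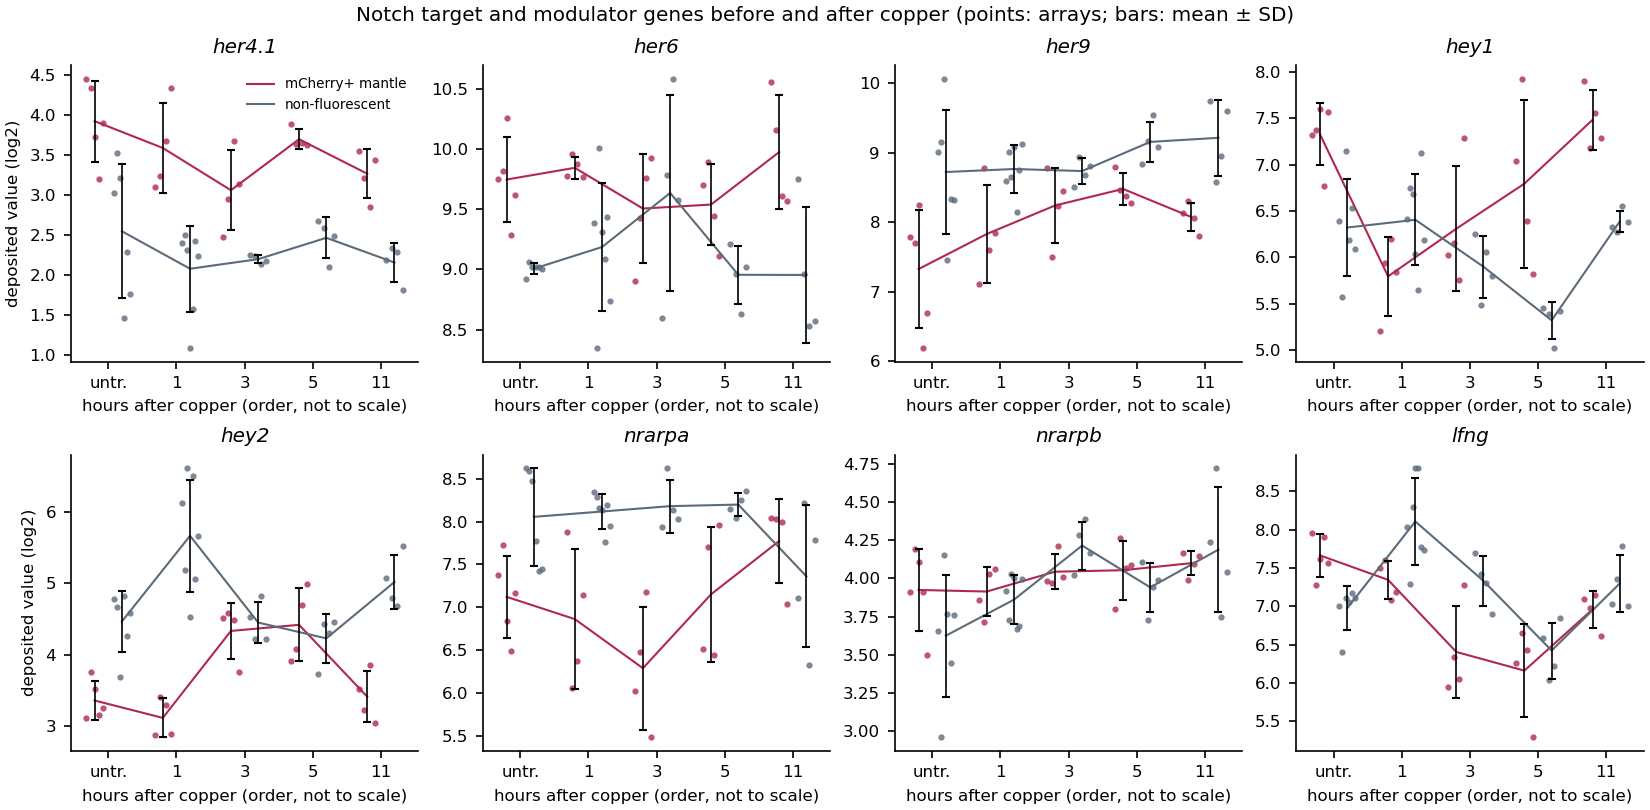
Deposited log2 values of the 8 genes in mCherry+ mantle cells (red) and non-fluorescent cells (grey), untreated and 1, 3, 5 and 11 h after copper, with 1 point per array and the mean ± SD joined by lines. Times are in order and not to scale. In mCherry+ cells the 4 arrays of hey1 at 1 h, at 5.2 to 6.2, lie below the untreated arrays, at 6.77 to 7.60, and in non-fluorescent cells hey2 and lfng have their highest means at 1 h.

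In mantle cells hey1 was low at 1 and 3 h. Its mCherry+ arrays had 5.2, 5.94, 6.20 and 5.84 at 1 h, 6.03, 6.16, 5.76 and 7.28 at 3 h, 7.04, 7.92, 6.40 and 5.82 at 5 h and 7.90, 7.18, 7.56 and 7.28 at 11 h, against 7.32, 7.37, 7.60, 6.77 and 7.57 in untreated cells. All 1 h arrays were below all untreated arrays, 3 of 4 arrays at 3 h were, and the 11 h arrays overlapped the untreated ones. The difference from untreated cells was -1.53 ± 0.31 at 1 h (adjusted p = 0.00775, a 2.89-fold lower value), -1.02 ± 0.31 at 3 h (adjusted p = 0.0233), -0.53 ± 0.31 at 5 h (adjusted p = 0.277) and 0.15 ± 0.31 at 11 h, with an interval of -0.48 to 0.79. The 1 h call held under every alternative run and without each array. The 3 h call was lost without any 1 of 5 arrays, which were untreated replicates 3 and 5 and 3 h replicates 1, 2 and 3 (differences of -0.97 to -0.84, adjusted p = 0.0514 to 0.105). Relative to mCherry+ cells at 1 h, hey1 was 1.69 ± 0.33 higher at 11 h (adjusted p = 0.0207). In that comparison 0.114% of all genes were called (0.0363% higher), and the 2 groups did not overlap, as in 3.87% of all genes. This call was lost without 11 h replicates 1 or 3 or 1 h replicate 1 (differences of 1.49 to 1.66, adjusted p = 0.0595 to 0.0928), with array weights (adjusted p = 0.0878) or with only the groups compared (adjusted p = 0.224). At 5 h hey1 was 0.999 higher than at 1 h (limma adjusted p = 0.0374). That call was lost without any 1 of 5 arrays (differences of 0.62 to 1.05, adjusted p = 0.0544 to 0.23).

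In non-fluorescent cells hey1 was called lower than in untreated cells at 5 h only. The 5 h arrays had 5.46, 5.39, 5.02 and 5.42, below the lowest untreated array, 5.57, and the untreated median of 6.29. Its difference from untreated cells was -1.0 ± 0.30 at 5 h (adjusted p = 0.0199, -1.10 relative to the array medians) and 0.08 ± 0.26 at 1 h, where the interval ran from -0.44 to 0.61. The 5 h call was lost without untreated replicate 3 (-0.83, adjusted p = 0.0576) or 5 h replicate 3 (-0.90, adjusted p = 0.0732). Relative to 1 h the difference at 5 h was -1.08 (limma adjusted p = 0.00715). The mCherry+ response at 5 h minus the non-fluorescent one was 0.47 (limma adjusted p = 0.565), so that a different response at 5 h was not shown.

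In non-fluorescent cells hey2 was high at 1 h. In 7 non-fluorescent arrays at 1 h the lowest, median and highest were 4.53, 5.66 and 6.62, against 3.69, 4.62 and 4.82 in untreated cells, and only the lowest array at 1 h, replicate 4, lay within the untreated range. The gene was 1.20 ± 0.25 higher (adjusted p = 0.00184, 1.00 relative to the array medians with an adjusted p of 0.0141). At 3, 5 and 11 h the differences were -0.02 ± 0.29, -0.24 ± 0.29 and 0.55 ± 0.29, and none passed. Relative to 1 h it was lower at 3 h (-1.22 ± 0.28, adjusted p = 0.00173) and 5 h (-1.44 ± 0.28, adjusted p = 0.000349). These comparisons called 2 and 3 of the 8 genes, all lower, against 21.5% and 20.5% of all genes (12.2% and 11.6% lower). The groups did not overlap in 9.9% and 10.5% of all genes. At 1 h 2 of 8 endothelial genes and 6 of 10 connective tissue genes were also called higher in these cells. So were 3 of 8 Schwann cell and glia genes and 2 of 8 pigment cell genes, while 1 of 8 leukocyte genes and 1 of 9 hair cell genes were lower. The endothelial list averaged 5.44 (4.92 to 6.31 over arrays) at 1 h and 4.90 (4.66 to 5.07) in untreated cells, and its part in the hey2 increase was not tested.

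In mCherry+ mantle cells hey2 had 2.88, 3.4, 3.29 and 2.88 at 1 h, 4.51, 4.58, 4.48 and 3.76 at 3 h, 3.91, 4.08, 4.69 and 5.00 at 5 h and 3.52, 3.23, 3.86 and 3.04 at 11 h, against 3.11, 3.76, 3.53, 3.15 and 3.25 in untreated cells. The 5 h arrays were all above the untreated arrays, as were 3 of the 4 arrays at 3 h by a wide margin, with replicate 4 at the upper edge of the untreated range. The differences from untreated cells were -0.24 ± 0.30 at 1 h, 0.98 ± 0.30 at 3 h (adjusted p = 0.0243), 1.06 ± 0.30 at 5 h (adjusted p = 0.0168) and 0.05 ± 0.30 at 11 h. The 3 h call was lost without any 1 of 6 arrays, which were untreated replicates 1, 4 and 5 and 3 h replicates 1, 2 and 3 (differences of 0.89 to 0.95, adjusted p = 0.0516 to 0.0726). The 5 h call was lost without 5 h replicates 3 or 4 (0.97 and 0.87, adjusted p = 0.0548 and 0.088). Relative to 1 h, hey2 was higher by 1.22 ± 0.32 at 3 h (adjusted p = 0.00793) and by 1.31 ± 0.32 at 5 h (adjusted p = 0.00469), where 13.7% and 13.5% of all genes were called. Of the 8 genes 1 was higher and 1 lower at 3 h, and 2 were higher and 1 lower at 5 h. The lower gene was lfng at both times, and its 3 h call was lost without any 1 of 5 arrays (limma adjusted p = 0.0517 to 0.0981). Neither comparison overlapped for hey2, as in 18.4% and 16.6% of all genes.

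In mCherry+ mantle cells lfng was low at 3 and 5 h. Its values were 7.49, 7.61, 7.09 and 7.19 at 1 h, 5.95, 6.34, 6.05 and 7.28 at 3 h, 6.26, 6.66, 6.43 and 5.29 at 5 h and 7.10, 6.98, 7.15 and 6.61 at 11 h, against 7.96, 7.28, 7.62, 7.90 and 7.56 in untreated cells. No array at 3, 5 or 11 h reached the untreated range, though at 3 h replicate 4 lay just under it. The differences were -0.32 ± 0.28 at 1 h, -1.26 ± 0.28 at 3 h (adjusted p = 0.0015), -1.51 ± 0.28 at 5 h (adjusted p = 0.000347, a 2.84-fold lower value) and -0.71 ± 0.28 at 11 h (adjusted p = 0.155). Keratinocyte markers moved in the same cells, with 0 of 10 called higher at 1 h, 7 of 10 at 3 h, 2 of 10 at 5 h and 2 of 10 at 11 h. Their mean was 8.22 (7.58 to 8.65 over arrays) at 1 h and 8.66 (8.26 to 8.92) at 11 h. It was 9.25 (8.53 to 9.98 over arrays) at 3 h and 8.67 (7.31 to 9.41) at 5 h, against 7.49 (6.83 to 7.87) in untreated cells. The part of these markers in the changes of lfng, hey1, hey2 and her9 was not tested.

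In non-fluorescent cells lfng was high at 1 h, and at 5 h it was lower than at 1 h but not called against untreated cells. The 7 arrays at 1 h had a lowest, median and highest of 7.29, 8.04 and 8.81, all above the highest untreated array, 7.17. The 5 h arrays had 6.59, 6.03, 6.21 and 6.85. The difference from untreated cells was 1.13 ± 0.23 at 1 h (adjusted p = 0.00128, 0.94 relative to the array medians with an adjusted p of 0.0136) and -0.55 ± 0.26 at 5 h (adjusted p = 0.148). At 5 h relative to 1 h the difference was -1.69 ± 0.26 (adjusted p = 9.05e-06), and these 2 groups did not overlap. At 3 h lfng was also called lower than at 1 h, a call lost without any 1 of 4 arrays (differences of -0.77 to -0.63, limma adjusted p = 0.0551 to 0.119).

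The Her and Nrarp genes gave 1 call in mantle cells and 2 in non-fluorescent cells after copper. In mCherry+ cells her9 had 8.79, 8.47, 8.38 and 8.28 at 5 h, against 7.79, 7.71, 8.24, 6.19 and 6.70 in untreated cells, so that the lowest 5 h array lay just above the highest untreated one. The difference was 1.15 ± 0.36 (adjusted p = 0.0307), and it was lost without any 1 of 6 arrays, which were untreated replicates 4 and 5 and each 5 h array (differences of 0.87 to 1.22, adjusted p = 0.0515 to 0.122). At 3 h the her9 difference (0.91, adjusted p = 0.0843) passed without untreated replicate 3 or 3 h replicate 2 (1.14 and 1.16, adjusted p = 0.0346 and 0.0439). For her4.1 in mCherry+ cells the differences were -0.33 ± 0.32, -0.86 ± 0.32, -0.23 ± 0.32 and -0.66 ± 0.32 at 1, 3, 5 and 11 h, and none passed. The 3 h difference of her4.1 (adjusted p = 0.06) passed without untreated replicate 4 (-1.04, adjusted p = 0.0305) or 3 h replicate 3 (-1.07, adjusted p = 0.0349). For her6 the differences in mCherry+ cells lay between -0.24 and 0.23, and in non-fluorescent cells the largest was 0.63 ± 0.28 at 3 h (adjusted p = 0.0929), which passed without 3 h replicate 1 (0.98, adjusted p = 0.0119). In mCherry+ cells nrarpa had 6.02, 6.48, 7.17 and 5.48 at 3 h and 8.04, 8.03, 7.99 and 7.03 at 11 h, against 7.38, 7.73, 6.84, 6.49 and 7.17 in untreated cells. These groups overlapped, and the differences of -0.83 ± 0.36 at 3 h (adjusted p = 0.117) and 0.65 ± 0.36 at 11 h (adjusted p = 0.358) did not pass. Without 3 h replicate 3 the 3 h difference of nrarpa passed (-1.13, adjusted p = 0.0471). In non-fluorescent cells nrarpb was higher by 0.59 ± 0.17 at 3 h (adjusted p = 0.00851, 0.49 relative to the array medians, lost with quantile normalization or only the groups compared at adjusted p = 0.105 and 0.0554) and by 0.56 ± 0.17 at 11 h (adjusted p = 0.028). Relative to the array medians the 11 h difference of nrarpb was 0.42 (adjusted p = 0.161), and its call was lost with quantile normalization, array weights or only the groups compared (adjusted p = 0.052 to 0.201) and without untreated replicates 2 or 5 or 11 h replicates 1 or 2 (adjusted p = 0.0543 to 0.163).

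The 3 h and 5 h arrays are linked in a way that the sources used here do not describe. In both populations the deviation of replicate 4 from its group mean at 3 h was the mirror image of that at 5 h over all genes, with a correlation across genes of -1.0. A block term was therefore tried that gives the arrays at 3 and 5 h other than replicate 4 a level of their own. With it the differences stay as they were, since the mirrored deviations cancel, and their errors grow. This holds for every gene, so that a call lost with the block follows from the larger error and not from a changed difference. The block therefore cannot show whether these arrays were shifted. The arrays at 3 and 5 h are also not independent of each other, and the fits without the block do not account for this. Errors and adjusted p-values of those fits at 3 and 5 h may be too small. The calls that follow are those with the block. In mCherry+ cells lfng at 5 h (-1.51, adjusted p = 0.0489) kept its call, whereas hey1 (-1.02, adjusted p = 0.246), hey2 (0.98, adjusted p = 0.251) and lfng (-1.26, adjusted p = 0.0748) at 3 h and hey2 (1.06, adjusted p = 0.237) and her9 (1.15, adjusted p = 0.297) at 5 h did not. In non-fluorescent cells nrarpb at 3 h (adjusted p = 0.149) and hey1 at 5 h (adjusted p = 0.251) lost theirs. Relative to 1 h, hey2 lost its calls in mCherry+ cells at 3 and 5 h (adjusted p = 0.136 and 0.108) and in non-fluorescent cells at 3 h (adjusted p = 0.0788). In non-fluorescent cells at 5 h relative to 1 h, hey2 (adjusted p = 0.0423) and lfng (adjusted p = 0.00634) kept theirs. Of the other calls relative to 1 h, only that of hey1 in mCherry+ cells at 11 h held with the block. With the block and equal array medians together, the 5 h calls of lfng in mCherry+ cells (adjusted p = 0.0608) and of hey2 relative to 1 h in non-fluorescent cells (adjusted p = 0.0571) were lost too. The 1 h calls of hey1 in mCherry+ cells (adjusted p = 0.0128) and of hey2 and lfng in non-fluorescent cells (adjusted p = 0.00305 and 0.00221) remained.

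**Figure D4:**
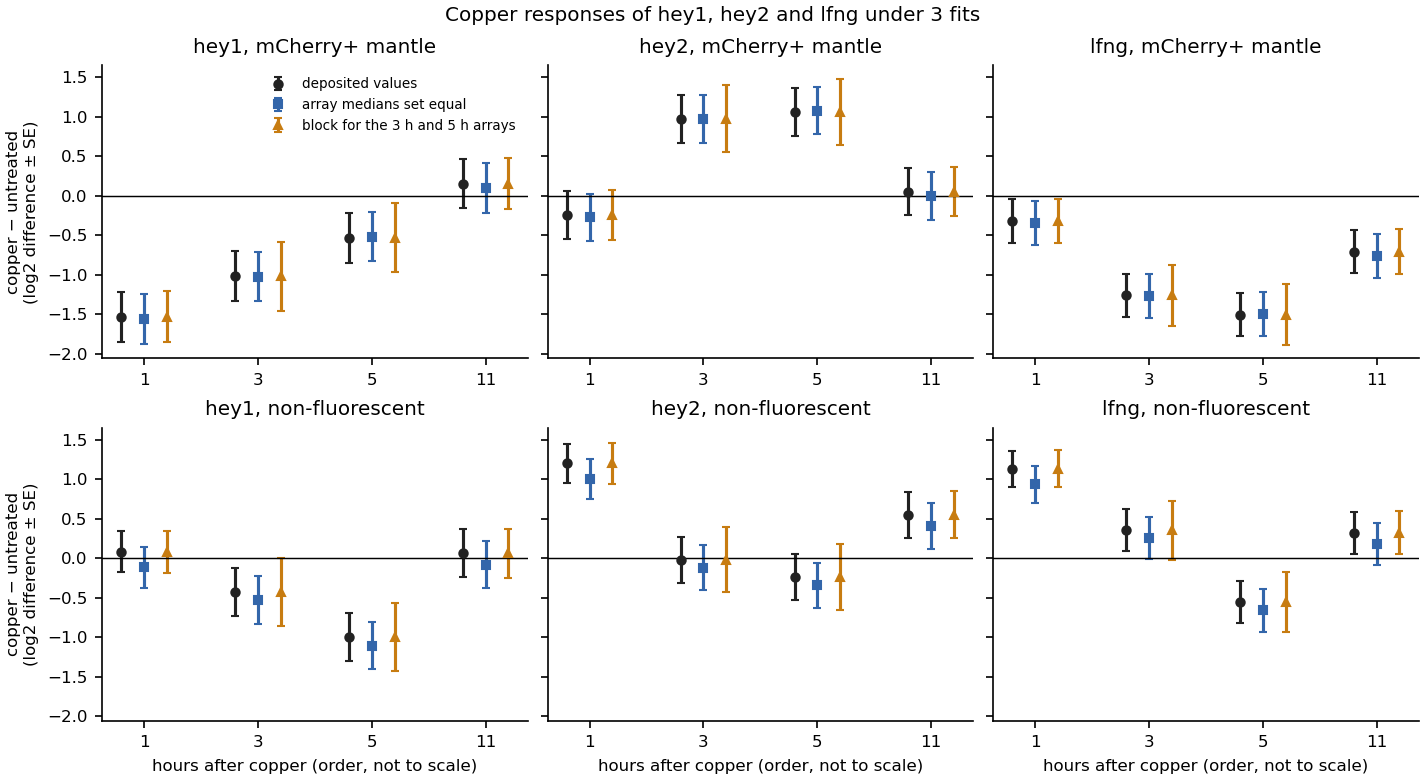
Copper responses of hey1, hey2 and lfng (log2 difference from untreated cells of the same population ± SE) in mCherry+ mantle cells (top) and non-fluorescent cells (bottom), fitted 3 ways: on values as deposited, after equalising array medians, and with a block term for the 3 h and 5 h arrays. The differences at 3 and 5 h keep their size under the block term while their error bars grow, and those at 1 h in non-fluorescent cells lie about 0.20 lower with equal medians.

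The 2 populations were compared in their responses, taking the mCherry+ difference from untreated cells minus the non-fluorescent one. At 1 h hey1, hey2 and lfng were called, all lower, against 2.22% of all genes (1.91% lower). The difference of responses was -1.61 ± 0.41 for hey1 (adjusted p = 0.0246), -1.45 ± 0.36 for lfng (adjusted p = 0.0204) and -1.45 ± 0.39 for hey2 (adjusted p = 0.04). Relative to the array medians they were -1.45, -1.29 and -1.28, with adjusted p-values of 0.0579, 0.0579 and 0.0856, so that none of the 3 passed. With quantile normalization hey1 (adjusted p = 0.0507) and hey2 (adjusted p = 0.14) did not pass either, and hey2 was further lost with the block term, with only the groups compared and with the closest pairs averaged (adjusted p = 0.0558 to 0.0891). The hey1 call was lost without any 1 of 4 arrays (untreated non-fluorescent replicate 2, untreated mCherry+ replicate 5 and 1 h mCherry+ replicates 1 and 4, adjusted p = 0.0505 to 0.068). That of lfng was lost without 1 h mCherry+ replicates 3 or 4 (adjusted p = 0.0501 and 0.0554). For hey2 the call was lost in 11 of the cases in which 1 array was left out (adjusted p = 0.0523 to 0.093). These were untreated non-fluorescent replicates 3 and 5, untreated mCherry+ replicates 2, 3 and 5, 1 h non-fluorescent replicates 1, 3 and 5 and 1 h mCherry+ replicates 1, 3 and 4.

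At 3 h the difference of responses was called for lfng alone, -1.62 ± 0.38 (adjusted p = 0.00393, -1.52 relative to the array medians), against 14.2% of all genes (9.47% lower). With the block term its adjusted p was 0.14. The her6 difference at 3 h passed without non-fluorescent 3 h replicate 1 (-1.22, adjusted p = 0.0291). At 5 h limma called 0 of the 8 genes, against 6.85% of all genes, with hey2 at 1.30 ± 0.42 (adjusted p = 0.0519, 1.42 and adjusted p = 0.0383 relative to the array medians). Without adjustment 2 of the 8 (hey2 and lfng) had a p below 0.05, as did 4396 of all 19260 genes. The hey2 difference at 5 h also passed without untreated non-fluorescent replicate 3, untreated mCherry+ replicate 2 or 5 h mCherry+ replicates 1 or 2 (adjusted p = 0.0321 to 0.0494). At 11 h limma called 0 of the 8, against 1.3% of all genes. Here 2 of the 8 (nrarpa and lfng) had an unadjusted p below 0.05, as did 3156 of all 19260 genes.

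The gap between mCherry+ mantle and non-fluorescent cells was also measured at each time after copper. Over all genes the main direction of these gaps reversed with equal array medians. At 1 h, 2439 genes called higher and 4245 lower became 5433 and 2274. At 3, 5 and 11 h, 2266, 2284 and 2118 higher became 4070, 4192 and 3534, and 3885, 4394 and 3695 lower became 2345, 2655 and 2254. Of the 8 genes, 1 was higher and 4 were lower in mCherry+ cells at 1 h, against 34.7% of all genes as deposited (12.7% higher, 22% lower). The largest gap was in hey2, -2.55 ± 0.28 (adjusted p = 1.12e-09, -2.23 relative to the array medians), and all 4 mCherry+ arrays lay below all 7 non-fluorescent arrays. In her4.1 the mCherry+ cells were higher by 1.51 ± 0.30 (adjusted p = 8.33e-05, 1.83 relative to the array medians), again without overlap, and nrarpa was lower (-1.26 ± 0.34, adjusted p = 0.00325, -0.94 relative to the array medians). The 1 h calls of lfng (-0.76 ± 0.26) and her9 (-0.93 ± 0.34) were lost relative to the array medians (-0.44 and -0.61, adjusted p = 0.173 and 0.156). They were also lost without single arrays, lfng without mCherry+ replicates 3 or 4 (adjusted p = 0.0565 to 0.0665) and her9 without non-fluorescent replicate 7 or mCherry+ replicates 1, 3 or 4 (adjusted p = 0.0534 to 0.156). The 1 h difference of her6, 0.66 (adjusted p = 0.0537), passed relative to the array medians (0.98, adjusted p = 0.00381), under 4 other alternatives (adjusted p = 0.00523 to 0.0485) and without non-fluorescent replicate 3 (0.80, adjusted p = 0.0178). That of hey1, -0.61 (-0.29 relative to the array medians), passed without non-fluorescent replicate 5 (-0.74, adjusted p = 0.0497). The lfng call was further lost with only the groups compared (adjusted p = 0.0592), and the her9 call with array weights (adjusted p = 0.0634).

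At 3 h her4.1 was higher by 0.86 ± 0.33 (adjusted p = 0.0453, 1.11 relative to the array medians) and nrarpa and lfng were lower by -1.89 ± 0.38 and -0.93 ± 0.29 (-1.64 and -0.68 relative to the array medians), against 31.9% of all genes called. Relative to the array medians lfng no longer passed (adjusted p = 0.0712). The her4.1 call at 3 h was lost without any 1 of 7 of the 8 arrays at that time (adjusted p = 0.0625 to 0.171), the exception being mCherry+ replicate 1. That of lfng was lost without mCherry+ replicate 1 (-0.77, adjusted p = 0.0563). At 5 h her4.1 (1.23 ± 0.33) and hey1 (1.47 ± 0.33) were higher and nrarpa (-1.05 ± 0.38) was lower, against 34.7% of all genes. With equal array medians these were 1.5, 1.75 and -0.77, and nrarpa no longer passed (adjusted p = 0.11), while her6 did (0.86, adjusted p = 0.0265, against 0.58 and 0.135 on the deposited values). The nrarpa call at 5 h was also lost without non-fluorescent replicates 3 or 4 or mCherry+ replicates 1 or 3 (adjusted p = 0.057 to 0.127). With the block term none of the 6 calls at 3 and 5 h passed. Their adjusted p was 0.395 for her4.1, 0.0512 for nrarpa and 0.261 for lfng at 3 h, and 0.159 for her4.1, 0.0778 for hey1 and 0.325 for nrarpa at 5 h. At 11 h her4.1 (1.11 ± 0.33), hey1 (1.09 ± 0.33) and her6 (1.02 ± 0.30) were higher and hey2 (-1.61 ± 0.32) and her9 (-1.14 ± 0.38) lower, against 30.2% of all genes (11% higher, 19.2% lower). Relative to the array medians the 11 h values were 1.35, 1.33, 1.26, -1.37 and -0.90, and her9 no longer passed (adjusted p = 0.0783). The 11 h call of her6 was lost with only the groups compared (adjusted p = 0.0547) or without mCherry+ replicate 1 (0.83, adjusted p = 0.0501), and that of her9 without non-fluorescent replicates 1 or 4 or mCherry+ replicate 4 (adjusted p = 0.0597 to 0.0761). At each of the 4 times every mCherry+ array of her4.1 was above every non-fluorescent one. Of the 8 genes 2, 2, 4 and 4 did not overlap at 1, 3, 5 and 11 h, against 18.7%, 32.2%, 34.4% and 23.3% of all genes.

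Of the 52 other Notch pathway genes measured, limma called none in mCherry+ cells at 1 h. An unadjusted p below 0.05 was found in 6 of the 52 and in 3032 of all 19260 genes. At 3 h 3 were higher and 6 lower, at 5 h 3 higher and 8 lower, and at 11 h 1 was lower, with medians of 0.01, -0.15, -0.10 and 0.06 at the 4 times beside 0.06, 0.03, 0.01 and 0.05 over all genes. Over all genes 1.15%, 7.99%, 5.85% and 3.13% were called higher in these cells, and 0.353%, 6.95%, 6.55% and 0.872% lower. The glycosyltransferase gene poglut1, whose product glucosylates Notch receptors, was lower at 3 h (-1.49 ± 0.32), 5 h (-1.94 ± 0.32) and 11 h (-1.09 ± 0.32). At 3 h her12 (-1.40 ± 0.34), the presenilin gene psen2 (-1.10 ± 0.28) and her15.2 (-1.08 ± 0.35) were lower as well. The her15.2 probe set used had means of 7.94 in untreated mCherry+ cells and 6.86, 7.41 and 7.52 at 3, 5 and 11 h. The second probe set listed for her15.2 had 5.71 in untreated cells and 5.08, 6.02 and 5.97 at these times, so that at 5 and 11 h it lay above its untreated mean. At 5 h rbpja (-1.25 ± 0.25) and the fucosyltransferase gene pofut1 (-1.14 ± 0.27) were lower and aph1b was higher (1.22 ± 0.38). In non-fluorescent cells 8 genes were higher and 1 lower at 1 h, 12 and 2 at 3 h, 9 and 3 at 5 h and 4 and 0 at 11 h, with medians of 0.20, 0.21, 0.18 and 0.13 beside 0.17, 0.15, 0.14 and 0.18 over all genes. The shares of all genes called in these cells were 10.5%, 17.3%, 12.9% and 7.89% higher, and 0.94%, 6.61%, 3.47% and 0.8% lower. Here her8a (1.37 ± 0.32) and jag2b (1.09 ± 0.26) led at 1 h, adam10b (1.89 ± 0.27) and aph1b (1.53 ± 0.36) at 3 h, aph1b (1.47 ± 0.36) and adam10b (1.29 ± 0.27) at 5 h, and jag2b (1.68 ± 0.30) and her5 (0.90 ± 0.17) at 11 h. The ligand gene dld was lower at 3 h (-1.27 ± 0.24).

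Over the 12 group means, her4.1 went with hey1 (Pearson r = 0.75) and her6 (r = 0.72), and her9 with hey2 (r = 0.72) and nrarpa (r = 0.61), whereas her4.1 and hey2 had r = -0.57 and the 2 Nrarp genes r = -0.01. By rank (Spearman rho) her4.1 had 0.46 with hey1, 0.71 with her6 and -0.67 with hey2. For her9 it was 0.69 with hey2 and 0.72 with nrarpa, and for the 2 Nrarp genes 0.16. These are descriptions over 12 points that share populations, array sets and untreated controls. Among 11985 other genes with a range of group means of at least 1, the 3 with the most similar pattern to her4.1 were cts12 (r = 0.97), spock2 (r = 0.97) and kctd1 (r = 0.96). For her6 they were fgfr1a (r = 0.98), ftcdnl1 (r = 0.97) and fat1a (r = 0.97), and for her9 they were f2rl1.2 (r = 0.97), stox2a (r = 0.97) and krt92 (r = 0.94). For hey1 they were tafa3a (r = 0.92), tnfsf10l3 (r = 0.91) and anxa14 (r = 0.89), and for hey2 taf1a (r = 0.94), fnbp1a (r = 0.93) and msc (r = 0.92). For nrarpa they were dsn1 (r = 0.94), maml1 (r = 0.92) and znf217 (r = 0.91), for lfng chordc1a (r = 0.90), crispld1a (r = 0.88) and KANK2 (r = 0.87), and for nrarpb, whose range is narrow, tmem17 (r = 0.83), her5 (r = 0.77) and chrna2b (r = 0.77). Ranked by Spearman rho, the named genes lay between 1 (spock2 for her4.1) and 73 (chrna2b for nrarpb). Those of hey1 ranked 19, 16 and 5.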

How the data were processed

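Affymetrix zebrafish gene arrays were hybridised with RNA from sorted cells. The deposited values are log2 signals made by the authors with RMA in Partek 6.6, per the submitters' processing notes, with base 2 inferred from their range (-1.29 to 15.05). Per the labels' protocols, the copper arrays were imported separately and a few arrays were left out after a principal component analysis. Whether same-numbered samples pair was checked. Their deviations correlated from -1.0 to 0.18 in the copper experiment and from -0.597 to 0.340 in untreated cells, with a median of -0.002 in each. The value of -1.0 is that of the mirrored deviations described in the Results. These ranges pool all populations and times, so they cannot decide whether some numbers pair samples of the same sort. The main fits assumed no pairing.

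Of 75212 probe sets, 20806 have 1 gene symbol in the platform annotation, giving 19260 genes (probe set with the highest mean). Their Entrez IDs were matched to RefSeq for names only. Differences were fitted with limma 3.58.1 in R 4.3.3 in 1 fit of the 17 untreated arrays and 1 fit of the 46 copper arrays (the 11 untreated mCherry+ and non-fluorescent arrays are in both), without covariates, and p-values were adjusted by Benjamini-Hochberg over all 19260 genes. The code was tested on simulated data. The number of arrays limits the precision. The genes and lists were chosen with earlier results of these data known. Named are all 8 genes, at most 4 called genes of the Notch list per comparison (largest differences first) and the 3 most similar genes by Pearson r. Alternatives changed the normalization, blocks, arrays, filter and threshold.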

Additional observations from a re-analysis of the deposited data

Results flagged for a closer look

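In 6 of 88 sets of 4 to 7 arrays, 1 array stood apart from the others of its group by a gap large against the group's range, where chance gives about 1 in 20, or 4.4. In mCherry+ cells these were her4.1 at 5 h, where replicate 1 had 3.88 and the others 3.62 to 3.65, hey2 at 3 h, where replicate 4 had 3.76 and the others 4.48 to 4.58, and nrarpa at 11 h, where replicate 4 had 7.03 and the others 7.99 to 8.04. In untreated mCherry+/GFP+ cells her6 replicate 4 had 10.1 and the others 10.8 to 10.9. In non-fluorescent cells hey1 at 5 h had 5.02 in replicate 3 and 5.39 to 5.46 in the others, and lfng in untreated cells had 6.41 in replicate 2 and 7.01 to 7.17 in the others.

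The copper responses of mCherry+ mantle cells and non-fluorescent cells differed by limma's test of the difference itself in 4 cases. The mCherry+ response minus the non-fluorescent one was -1.61 for hey1 at 1 h, -1.45 for hey2 at 1 h, -1.45 for lfng at 1 h and -1.62 for lfng at 3 h. With equal array medians the 1 h differences no longer passed (adjusted p = 0.0579 for hey1, 0.0856 for hey2 and 0.0579 for lfng), and with a block for the arrays at 3 and 5 h other than replicate 4 the 3 h difference of lfng did not (adjusted p = 0.14).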

How the results depend on the processing

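Of 224 tests of the 8 genes, limma called 71, and 28 of these held under each alternative run and without each array in turn. No call changed sign. The number called was 7 of 32 for copper in mCherry+ cells, 5 of 32 in non-fluorescent cells, 4 of 32 for the difference of responses, 16 of 32 between the populations at each time and 11 of 48 for later times against 1 h. In that order, it became 2, 3, 2, 10 and 3 with a block for the arrays at 3 and 5 h other than replicate 4, 1, 2, 0, 9 and 2 with that block and equal array medians, and 3, 3, 1, 10 and 7 at an adjusted p below 0.01. In non-fluorescent cells 3 were called with quantile normalization or with only the groups compared. Without dim genes 3 were called as well, but nrarpb, which has calls at 3 and 11 h, was then not tested. The difference of responses gave 2 with equal array medians and 9 with array weights, and later times against 1 h gave 7 with only the groups compared. With the replicate number as a block the counts were 6, 4, 3, 16 and 10, and 26 in untreated cells, where 28 of 48 were called without it. Among the calls it ended was that of her4.1 in untreated mCherry+ against non-fluorescent cells (adjusted p = 0.0523). Leaving out 1 array gave 4 to 7, 4 to 6, 1 to 5, 14 to 17 and 8 to 12 calls in the same order, and 24 to 29 in untreated cells. Where that leaves 1 hair cell array, it is assumed to vary like the other groups. Averaging the closest pairs of arrays, an alternative chosen after seeing the data, gave 22 in untreated cells. Calls at 3 and 5 h lost with the block for those times alone follow from larger errors at unchanged differences. The cause of the other changes was not tested. Searches of promoter sequence were not run. Dim signal limits nrarpb, her4.1 and hey2, which lay below the array median in most arrays.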
